A study of Mus musculus with 35 samples.

Results

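The genes described here are 6 inhibitors of cyclin-dependent kinases (CDKs), namely Cdkn1a, Cdkn1b, Cdkn2a, Cdkn2b, Cdkn2c and Cdkn2d, and the 3 D-type cyclins Ccnd1, Ccnd2 and Ccnd3. They were found by gene symbol in the 3 RNA-seq tables of the series, and all 9 were listed in each: among 17948 genes of the day 3 experiment, 18091 of the Dnmt1 experiment, and 17705 in that with Tet3-CD. The study asked what the dioxygenase TET3, which oxidizes 5-methylcytosine in DNA, contributes when mouse embryonic stem cells (ESCs) turn into neuroectoderm (NE) cells. It compared ESCs with intact Tet3 (Tet3+/+), with point mutations that remove the catalytic activity (Tet3m/m) and with a deletion of exon 4 (Tet3-/-). All lines descend from v6.5 male ESCs of a mixed genetic background, were expanded on feeder fibroblasts that were depleted by pre-plating, and were differentiated by withdrawal of LIF and addition of 1 µM retinoic acid (RA).

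On day 3, that is after 72 h of RA, 3 Tet3+/+, 3 Tet3m/m and 2 Tet3-/- samples were sequenced, each from its own clone. In the Dnmt1 experiment, cells of each genotype received a plasmid expressing myc-tagged Dnmt1, the maintenance DNA methyltransferase, or the empty vector at the start of differentiation and were selected with blasticidin, with 2 samples per genotype and vector. Nothing states that these pairs came from separate cultures, so p-values of that experiment measure only the spread between these samples, which may be technical. In the Tet3-CD experiment, the catalytic domain of TET3 with an HA tag and tdTomato, or the empty vector, was introduced during differentiation, with 1 sample per genotype and vector. The labels and the methods of the paper disagree on the sampling time of the Tet3-CD experiment. Its time may therefore differ from the 72 h of day 3. Reads recovered per sample lay between 31155842 and 50845950 over the 26 samples. All values are normalized counts, that is reads per gene divided by the sample's size factor, and they can be compared between the samples of 1 experiment but not between experiments.

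Tet3 itself, counted over the whole gene, was 4577 to 5020 in Tet3+/+, 1945 to 2666 in Tet3m/m and 1796 and 2329 in Tet3-/- samples on day 3. With the empty vector of the Dnmt1 experiment it was 2957 and 3075, then 964 and 1125, then 2520 and 2571. A count over the whole gene cannot check the loss of 1 exon, and it cannot show point mutations. Of 9 neuroectoderm markers (Sox1, Sox2, Sox3, Pax6, Nes, Hes5, Neurog2, Zic1 and Zfp521), all were detected on day 3 except 1 at 0 in Tet3m/m replicate 1, and 6 were called lower in Tet3m/m and 1 lower and 1 higher in Tet3-/- than in Tet3+/+. The sum of 4 mesoderm markers (T, Tbx6, Mixl1 and Hand1) was 266 to 436 on day 3, and none was called.

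Progress from G1 into S phase depends on D-type cyclins, which bind and activate CDK4 and CDK6. The active complexes phosphorylate the retinoblastoma protein and so release E2F factors, which switch on genes of DNA replication. INK4 inhibitors (the p16Ink4a product of Cdkn2a and the products of Cdkn2b to Cdkn2d) bind CDK4 and CDK6 directly. CIP/KIP inhibitors (Cdkn1a and Cdkn1b here) bind complexes of cyclins and CDKs. ESCs are known for a short G1 phase that lengthens as they differentiate.

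Cdkn2a and Cdkn2b lie next to each other on chromosome 4 and Cdkn1a on chromosome 17. Their promoters are shown because the study is about DNA methylation, whose substrate in mammals is mainly the CpG dinucleotide, and because these 3 inhibitors were the ones called between genotypes under the empty vector of the Dnmt1 experiment. Each sequence is the 250 bases upstream of a RefSeq start site in GRCm38.p6, on the strand of the gene, with every CpG in capitals.
Cdkn2a, upstream start (p19Arf transcript), chr4:89294620-89294869, minus strand: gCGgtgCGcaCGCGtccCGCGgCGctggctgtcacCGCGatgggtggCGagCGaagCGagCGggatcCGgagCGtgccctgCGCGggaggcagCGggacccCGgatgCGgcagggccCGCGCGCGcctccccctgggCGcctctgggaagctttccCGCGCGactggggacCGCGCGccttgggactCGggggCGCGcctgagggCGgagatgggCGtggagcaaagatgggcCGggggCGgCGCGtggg
Cdkn2a, downstream start (p16Ink4a transcript), chr4:89282193-89282442, minus strand: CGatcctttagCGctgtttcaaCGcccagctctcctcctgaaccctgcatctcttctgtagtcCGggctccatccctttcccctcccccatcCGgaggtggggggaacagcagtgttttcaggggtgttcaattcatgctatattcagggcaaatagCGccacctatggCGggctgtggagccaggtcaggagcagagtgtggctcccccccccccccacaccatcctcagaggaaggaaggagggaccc
Cdkn2b, chr4:89311033-89311282, minus strand: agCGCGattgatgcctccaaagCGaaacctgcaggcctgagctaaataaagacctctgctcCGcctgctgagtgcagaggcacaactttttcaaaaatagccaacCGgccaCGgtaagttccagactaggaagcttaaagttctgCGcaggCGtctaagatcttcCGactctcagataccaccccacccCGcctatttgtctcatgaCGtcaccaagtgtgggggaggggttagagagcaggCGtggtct
Cdkn1a, downstream start, chr17:29093519-29093768, plus strand: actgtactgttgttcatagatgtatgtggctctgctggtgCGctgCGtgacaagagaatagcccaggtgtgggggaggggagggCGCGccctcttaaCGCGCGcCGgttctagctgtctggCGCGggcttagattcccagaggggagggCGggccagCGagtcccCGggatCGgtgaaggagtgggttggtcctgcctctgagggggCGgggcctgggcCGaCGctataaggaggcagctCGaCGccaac

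The upstream Cdkn2a promoter held 40 CpGs at a GC content of 78.4%, and 1.31% of the 32851 promoters in the RefSeq table held as many or more (median, 6 CpGs and 52.4% GC). At the downstream Cdkn2a start, 7 CpGs were found, and 46.3% of promoters had at least that number. The Cdkn2b promoter held 12 CpGs (33.5% of promoters have as many), and the downstream Cdkn1a promoter held 19 (19.7%). The other RefSeq start of Cdkn1a, at chr17:29090729-29090978, had only 2. Both strands were searched for 4 motifs. The GC box GGGCGG, present in 32.7% of all promoters, occurred in 2 copies at the upstream Cdkn2a start and in 2 copies at the downstream Cdkn1a start. The E2F motif TTTNNCGC, present in 4.28% of promoters, was found in 1 copy at each Cdkn2a start. The cAMP response element TGACGTCA, present in 1.55%, was found in 1 copy at Cdkn2b. The TATA box TATAAA, present in 12.4%, was in none of these promoters. The table held no promoter for Ccnd1 or Ccnd2. Methylation at these sites was not analysed here, and as the sources name more than 1 assembly for the alignment, the positions serve to locate the sequences only.

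Levels of different genes were compared per kilobase of exon, as the mean normalized count of the 3 Tet3+/+ samples on day 3. Cdkn1a stood highest at 2624 per kb (range, 2329 to 2881), followed by Cdkn2a at 1976 (1730 to 2259). The cyclins came next, with Ccnd1 at 1568 (1441 to 1703), Ccnd2 at 1230 (1180 to 1324) and Ccnd3 at 1172 (1141 to 1189). Cdkn2b reached 890.0 (620.2 to 1174), Cdkn1b 671.6 (644.3 to 685.7), Cdkn2d 403.7 (375.5 to 421.9) and Cdkn2c 92.1 (91.1 to 94.2). The ranges of Ccnd2 and Ccnd3, of Ccnd3 and Cdkn2b and of Cdkn2b and Cdkn1b overlapped, so these neighbours in the order were not separated by the spread of the samples. A single count covers both products of Cdkn2a, p16Ink4a and p19Arf, which share exons, so it is not a level of the INK4 inhibitor p16Ink4a alone.

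Differences between groups were fitted with limma on log2(normalized count + 1) over all genes with a mean of at least 10, which held for all 9 members in every experiment. A gene is called here when its Benjamini-Hochberg adjusted p is under 0.05 and its fold change above 1.5. In the bulk RNA of these cultures, fewer cells of a type and less RNA per cell cannot be told apart.

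On day 3, the cyclins Ccnd1 and Ccnd2 fell in Tet3m/m cells, whereas none of the 6 inhibitors was called in either direction. Against 2 of 9 members, 10.2% of the 17915 genes tested were called, and 5.19% as lower. The median log2 difference was -0.28 over the 9 members and 0.00 over all genes. In Tet3-/- cells the 3 inhibitors Cdkn1a, Cdkn2a and Cdkn2b were higher than in Tet3+/+ cells in both samples, but no member was called (0.642% of genes were called). With no call by limma, 6 members had an unadjusted p under 0.05 (20.1% of genes did), while edgeR called 0 and DESeq2 called 1 of them, Cdkn1a. The samples of both genotypes did not overlap for 6 members (41.2% of genes), namely those 3 inhibitors, which were higher, and Cdkn1b, Cdkn2c and Ccnd1, which were lower.

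**Figure D1:**
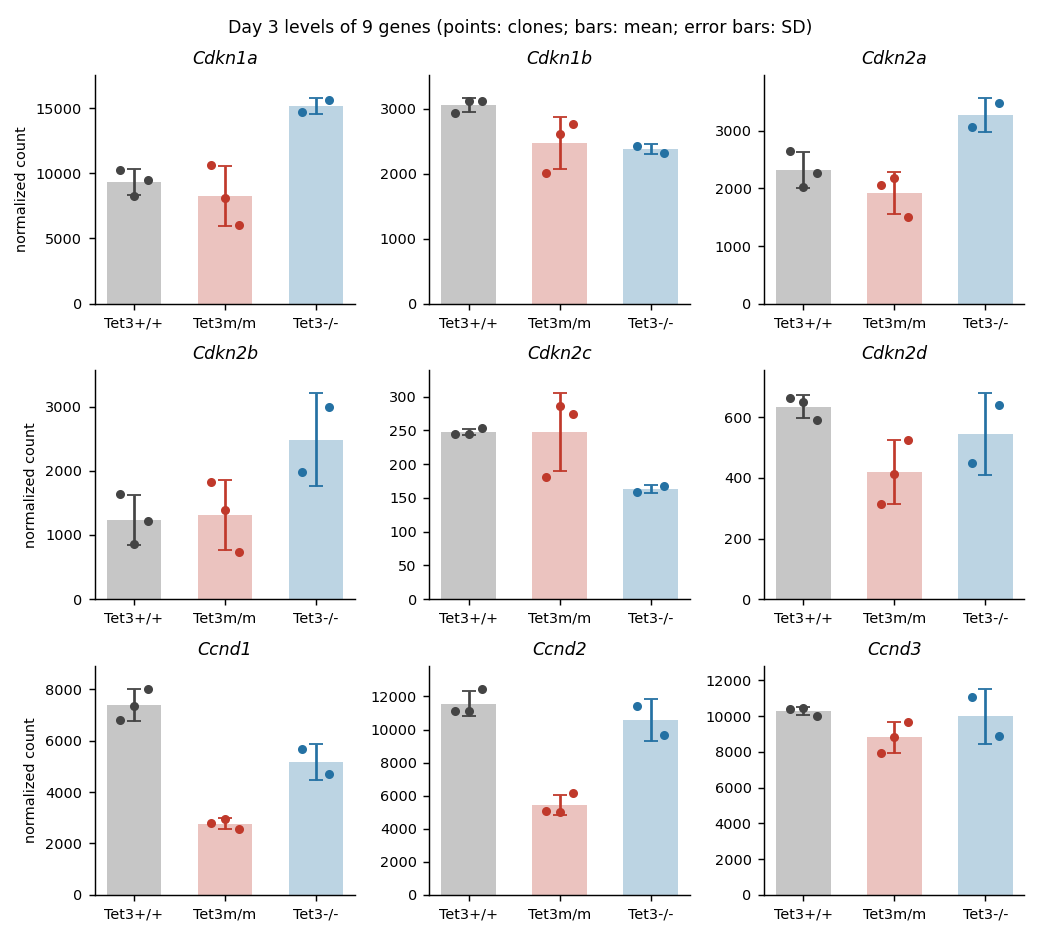
Normalized counts of the 9 genes in the 8 day 3 samples, by genotype. Points are clones, bars are group means and error bars are SD. For Ccnd1 the 3 Tet3m/m samples sit between 2560 and 2954, all below the Tet3+/+ samples at 6788 to 8018, and for Cdkn1a both Tet3-/- samples (14713 and 15605) sit above all others.

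Ccnd1 encodes cyclin D1, a target of growth factor and Wnt signals. Its normalized counts on day 3 were 6788, 7345 and 8018 in Tet3+/+, 2802, 2954 and 2560 in Tet3m/m and 5666 and 4685 in Tet3-/- samples. All 3 Tet3m/m samples lay below both other genotypes without overlap, and both Tet3-/- samples lay below Tet3+/+. The fold change was 2.66-fold lower in Tet3m/m than in Tet3+/+ (log2 difference, -1.41 ± 0.11 SE, limma adjusted p = 5.96e-05). In Tet3-/-, the log2 difference from Tet3+/+ was -0.52 (95% interval, -0.78 to -0.26, adjusted p = 0.0630), which missed the threshold. Tet3-/- cells had more Ccnd1 than Tet3m/m cells by 0.90 ± 0.12 SE on the log2 scale (adjusted p = 0.00129).

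Ccnd2 encodes cyclin D2, which is prominent in neural progenitors. It measured 11144, 11105 and 12460 in Tet3+/+, 5097, 5027 and 6131 in Tet3m/m and 11453 and 9649 in Tet3-/- samples. Only the Tet3m/m samples stood apart, and Tet3-/- overlapped with Tet3+/+. The decrease in Tet3m/m was 2.14-fold (log2 difference, -1.10 ± 0.11 SE, limma adjusted p = 0.000175). Between Tet3-/- and Tet3+/+ the log2 difference was -0.14 with a 95% interval of -0.40 to 0.13 (adjusted p = 0.56), and against Tet3m/m it was 0.96 ± 0.12 SE (adjusted p = 0.000962). Ccnd3, the most widely expressed D cyclin, changed little: 10414, 10433 and 10015 in Tet3+/+, 7916, 8857 and 9671 in Tet3m/m and 11079 and 8911 in Tet3-/-. The Tet3m/m samples were all lower than Tet3+/+, but by -0.23 on the log2 scale (95% interval, -0.46 to 0.01, adjusted p = 0.19). Of all genes tested, 36.7% had groups that did not overlap in this comparison, as did 5 of the 9 members (Cdkn1b, Cdkn2d and the 3 cyclins, all lower in Tet3m/m).

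Cdkn1a encodes p21, the CIP/KIP inhibitor that p53 switches on. It was counted at 10238, 8275 and 9455 in Tet3+/+, 10669, 8097 and 6036 in Tet3m/m and 14713 and 15605 in Tet3-/- samples. Both Tet3-/- samples exceeded every other sample, and the other genotypes overlapped. The log2 difference between Tet3-/- and Tet3+/+ was 0.71 (95% interval, 0.28 to 1.13, limma adjusted p = 0.085). Against Tet3m/m it was 0.91 ± 0.19 SE and was called (adjusted p = 0.013). Without Tet3-/- replicate 1 or 2 that difference was 0.96 or 0.87, and the call did not hold. The Tet3-/- against Tet3+/+ difference was called by limma without Tet3m/m replicate 1 or 3 (adjusted p = 0.02 and 0.023). It was also called by DESeq2 (0.70, adjusted p = 0.0125) and in a limma fit of only the groups compared (adjusted p = 0.0172).

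Cdkn1b encodes p27, the inhibitor that holds cells in quiescence. Its counts were 2933, 3121 and 3117 in Tet3+/+, 2012, 2611 and 2770 in Tet3m/m and 2432 and 2321 in Tet3-/- samples. Every Tet3+/+ sample was above both mutants, which overlapped with each other. The log2 differences from Tet3+/+ were -0.32 in Tet3m/m (95% interval, -0.59 to -0.06, adjusted p = 0.1) and -0.36 in Tet3-/- (-0.66 to -0.07, adjusted p = 0.17), and neither was called by limma.

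Among the INK4 genes, Cdkn2a and Cdkn2b are the pair induced in senescent and cultured fibroblasts. Cdkn2a gave 2647, 2028 and 2271 in Tet3+/+, 2062, 2184 and 1503 in Tet3m/m and 3071 and 3485 in Tet3-/- samples. Cdkn2b gave 1632, 862.1 and 1218 in Tet3+/+, 1827, 1383 and 741.3 in Tet3m/m and 1975 and 2994 in Tet3-/- samples. For both genes the Tet3-/- samples were the highest, and Tet3+/+ and Tet3m/m overlapped. Cdkn2a was called between Tet3-/- and Tet3m/m (log2 difference, 0.79 ± 0.17 SE, limma adjusted p = 0.013), but not without Tet3-/- replicate 2 (adjusted p = 0.079). Against Tet3+/+ the Tet3-/- differences were 0.51 for Cdkn2a (95% interval, 0.14 to 0.88, adjusted p = 0.13) and 1.02 for Cdkn2b (0.24 to 1.81, adjusted p = 0.15). For Cdkn2b the difference between Tet3-/- and Tet3m/m was 0.98 (0.19 to 1.76, adjusted p = 0.099), and it was called without Tet3m/m replicate 1 (adjusted p = 0.032).

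The remaining INK4 genes, Cdkn2c (p18) and Cdkn2d (p19Ink4d), are known from the developing nervous system. Cdkn2c was counted at 244.8, 244.7 and 253.0 in Tet3+/+, 181.3, 285.8 and 274.9 in Tet3m/m and 159.1 and 167.4 in Tet3-/- samples. Tet3-/- was lowest without overlap, at a log2 difference from Tet3+/+ of -0.60 (95% interval, -1.11 to -0.09, limma adjusted p = 0.18). Against Tet3m/m it was -0.57 (-1.08 to -0.06, adjusted p = 0.14), and without Tet3m/m replicate 1 it was called at -0.78 (adjusted p = 0.023). Cdkn2d gave 664.0, 651.0 and 591.1 in Tet3+/+, 315.5, 414.0 and 526.4 in Tet3m/m and 449.6 and 639.9 in Tet3-/- samples. All Tet3m/m samples lay below Tet3+/+, with a log2 difference of -0.63 (-1.07 to -0.19, adjusted p = 0.062). Without Tet3m/m replicate 3 the decrease of Cdkn2d was called (adjusted p = 0.022), as it was without Tet3-/- replicate 1 or 2 (0.047 and 0.048), by DESeq2 (0.027) and in a fit of only the groups compared (0.047). Between Tet3-/- and Tet3m/m, 4 of 9 members were called, all higher in Tet3-/- (Cdkn1a, Cdkn2a, Ccnd1 and Ccnd2), where 9.73% of genes were called in either direction and 5.41% as higher. Leaving out Tet3-/- replicate 2 reduced them to 2 (the cyclins), leaving out Tet3m/m replicate 1 raised them to 6, and a limma prior without the trend of the spread with the level also left 2.

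**Figure D2:**
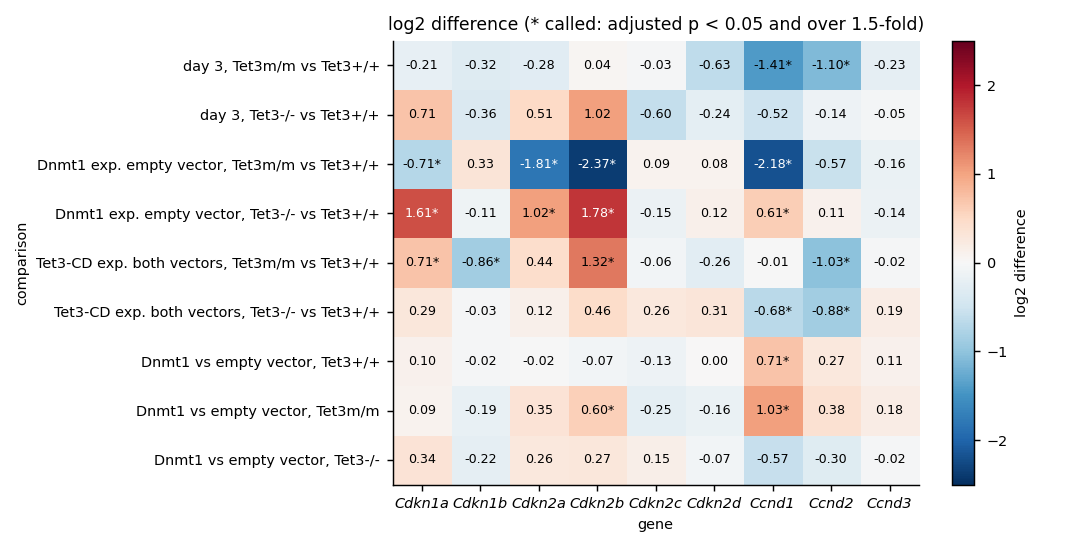
Heat map of the log2 differences fitted by limma, with the 9 genes in columns and 9 comparisons in rows. Color gives the log2 difference, printed in each cell, and an asterisk marks a called gene (adjusted p under 0.05 and above 1.5-fold). Ccnd1 and Ccnd2 are the only members called in Tet3m/m against Tet3+/+ on day 3, at -1.41 and -1.10.

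Markers of fibroblasts, the cells that ESCs are grown on, varied in the same samples. The summed normalized count of 8 such genes (Col1a1, Col1a2, Col3a1, Thy1, Lum, Dcn, Postn and Twist2) on day 3 was 17102 to 27874 in Tet3+/+, 10437 to 20571 in Tet3m/m and 42441 and 47322 in Tet3-/- samples. None of the 8 was at 0. All 8 were higher in Tet3-/- than in Tet3+/+ with a median log2 difference of 0.54, although none was called. Against Tet3m/m, 2 of 8 were called in Tet3-/-, Col3a1 (2.13) and Col1a1 (2.06). Within each genotype the order of the samples by Cdkn2b was the same as by the fibroblast sum. These genes are also expressed by mesenchymal cells that ESCs form, and their part in the differences of Cdkn2b, Cdkn2a and Cdkn1a was not tested. On day 3, Ccnd1 and Ccnd2 were both highest in Tet3+/+ replicate 3, whose sum was 20666, while the highest sums were those of Tet3-/-. The part of the fibroblast markers in the cyclin differences was not tested either.

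**Figure D3:**
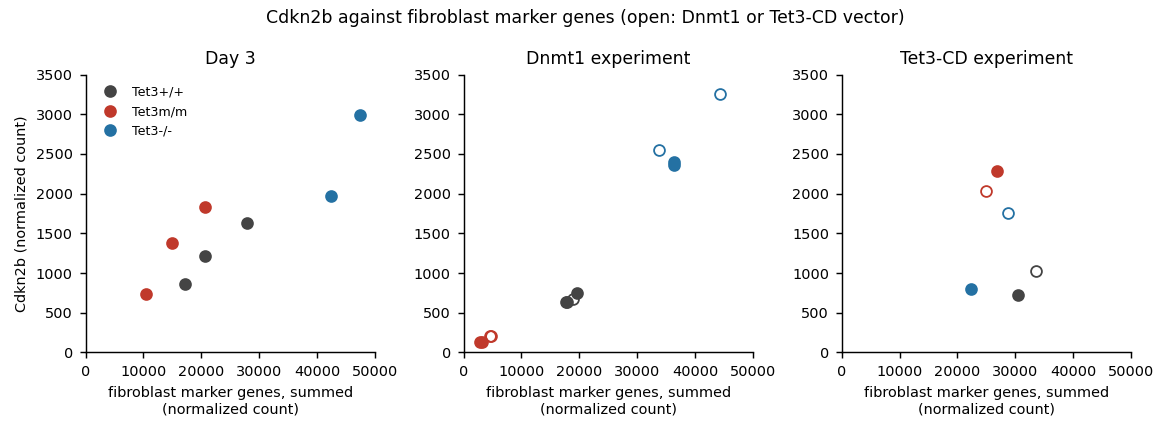
Cdkn2b (normalized count) against the summed normalized count of 8 fibroblast markers, 1 point per sample and 1 panel per experiment, with color for genotype, filled points for day 3 and empty vector samples and open points for Dnmt1 or Tet3-CD. On day 3 Cdkn2b reaches from 741.3 in Tet3m/m replicate 3 (sum, 10437) to 2994 in Tet3-/- replicate 2 (sum, 47322) and has the order of the sum within each genotype, whereas in the Tet3-CD experiment the Tet3m/m samples hold the highest Cdkn2b at sums of 25004 and 26890, below the Tet3+/+ sums.

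In the Dnmt1 experiment, the genotypes were compared under the empty vector. There Cdkn2b, Ccnd1, Cdkn2a and Cdkn1a fell in Tet3m/m against Tet3+/+ (4 of 9 members, where 21.2% of the 18055 genes tested were called and 10.9% as lower). The same genes, Cdkn2b, Cdkn1a, Cdkn2a and Ccnd1, rose in Tet3-/- (4 of 9, where 24.9% of genes were called and 11.0% as higher). Between Tet3-/- and Tet3m/m, 5 of 9 members were called higher (Cdkn2b, Cdkn2a, Ccnd1, Cdkn1a and Ccnd2), against 39.6% of genes in either direction and 18.9% as higher.

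Cdkn2b had normalized counts of 745.8 and 637.8 in Tet3+/+, 130.7 and 135.4 in Tet3m/m and 2394 and 2365 in Tet3-/- samples with the empty vector. The 3 genotypes did not overlap, which held for 72.3% of genes between Tet3m/m and Tet3+/+ and for 77.1% between Tet3-/- and Tet3+/+. Cdkn2b fell 5.15-fold in Tet3m/m (log2 difference, -2.37 ± 0.11 SE, limma adjusted p = 9.81e-14) and rose 3.45-fold in Tet3-/- (1.78 ± 0.11 SE, adjusted p = 1.6e-11). Cdkn2a followed the same order, with 1475 and 1468, then 415.8 and 419.4, then 3066 and 2916. It was 3.52-fold lower in Tet3m/m (adjusted p = 4.78e-14) and 2.03-fold higher in Tet3-/- (adjusted p = 7.42e-10).

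Cdkn1a measured 3489 and 3539 in Tet3+/+, 2149 and 2133 in Tet3m/m and 10862 and 10644 in Tet3-/- samples. Again the genotypes did not overlap. It was 1.64-fold lower in Tet3m/m (adjusted p = 4.22e-09) and 3.06-fold higher in Tet3-/- (limma, adjusted p = 1.14e-14). Cdkn1b moved the other way and within a narrow range, with 3194 and 3451, then 4234 and 4091, then 3146 and 3002. Its log2 difference was 0.33 in Tet3m/m (adjusted p = 4.36e-05), below the fold threshold. Cdkn2c and Cdkn2d did not pass the adjusted p in any comparison between genotypes with the empty vector, with intervals from -0.58 to 0.43 for Cdkn2c and from -0.19 to 0.35 for Cdkn2d.

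Ccnd1 counted 3631 and 3595 in Tet3+/+, 772.3 and 821.8 in Tet3m/m and 5282 and 5763 in Tet3-/- samples with the empty vector. Tet3m/m was 4.53-fold lower (log2 difference, -2.18 ± 0.063 SE, limma adjusted p = 6.18e-17) and Tet3-/- 1.53-fold higher (0.61 ± 0.063 SE, adjusted p = 6.23e-08). Without Tet3-/- replicate 2 that rise was 0.55 and under the fold threshold. On day 3, by contrast, both Tet3-/- samples had been below Tet3+/+, and the difference between the experiments was not tested. Ccnd2 had 6642 and 6444, then 4621 and 4225, then 7114 and 6995. Its decrease in Tet3m/m, -0.57 on the log2 scale (adjusted p = 1.47e-08), was just under the fold threshold and was called without Tet3+/+ replicate B (-0.59) or Tet3m/m replicate 1 (-0.63). Ccnd3 differed from Tet3+/+ by -0.16 in Tet3m/m (adjusted p = 0.00547) and by -0.14 in Tet3-/- (adjusted p = 0.013).

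The cultures of this experiment also differed in cell type markers. With the empty vector, the fibroblast sum was 17750 and 19497 in Tet3+/+, 2900 and 3145 in Tet3m/m and 36357 and 36375 in Tet3-/-, with 6 of 8 genes called lower and 1 called higher in Tet3m/m, and 3 called higher and 1 called lower in Tet3-/-. Only 1 of the 8 was at 0, in 1 Tet3m/m sample. The sum of 5 pluripotency markers (Pou5f1, Nanog, Zfp42, Klf4 and Esrrb) was 17433 and 17499 in Tet3+/+, 49377 and 50428 in Tet3m/m and 2948 and 3095 in Tet3-/-. All 5 were called higher in Tet3m/m, and 4 of 5 lower in Tet3-/-. The endoderm sum (Gata4, Gata6, Sox7, Sox17, Foxa2 and Dab2) was 17489 and 17894 in Tet3+/+, 44640 and 46711 in Tet3m/m and 9669 and 10111 in Tet3-/-, with 6 of 6 called higher in Tet3m/m and 4 lower and 1 higher in Tet3-/-. The order of the genotypes by Cdkn2b, Cdkn2a, Cdkn1a and Ccnd1 was that of the fibroblast sum and the reverse of the pluripotency and endoderm sums. The part of the cell types in these differences was not tested.

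Adding Dnmt1 moved Ccnd1 in opposite directions by genotype. The count of Dnmt1, which covers the endogenous gene and the plasmid, was 14679 and 15225 with the empty vector and 22799 and 23768 with Dnmt1 in Tet3+/+, 11934 and 11285 against 20245 and 23211 in Tet3m/m, and 17356 and 17554 against 33381 and 39854 in Tet3-/-. In Tet3+/+ cells 1 of 9 members was called (Ccnd1, higher, where 1.17% of genes were called and 0.421% as higher), in Tet3m/m 2 of 9 (Ccnd1 and Cdkn2b, both higher, where 2.46% were called and 1.78% as higher) and in Tet3-/- 0 of 9 (3.53%). In Tet3-/-, 6 members had an unadjusted p under 0.05 by limma (26.3% of genes did) and 5 passed the adjusted p without the fold threshold (13.4% of genes), and neither edgeR nor DESeq2 called any (0 each).

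**Figure D4:**
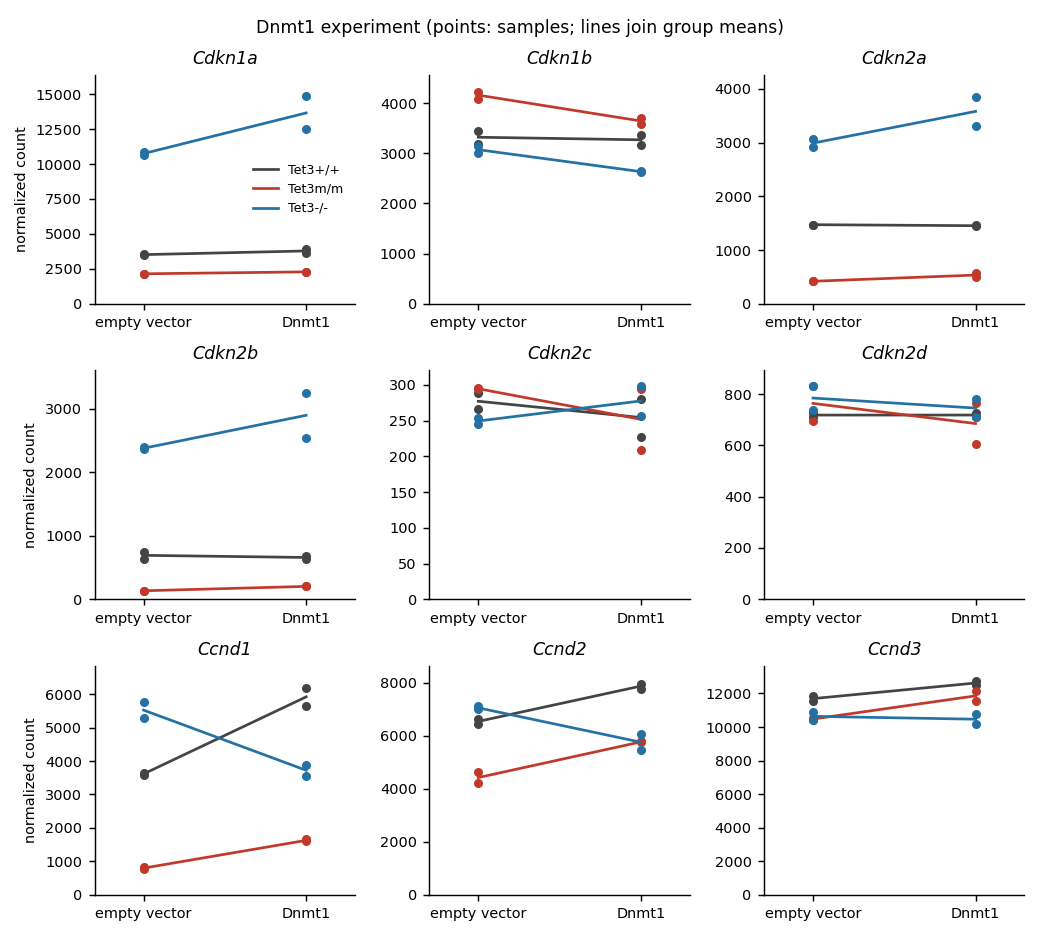
Normalized counts of the 9 genes in the 12 samples of the Dnmt1 experiment, by vector (horizontal axis) and genotype (color). Points are samples and lines join group means. Ccnd1 is higher with Dnmt1 in Tet3+/+ (5643 and 6194 against 3595 and 3631) and in Tet3m/m (1600 and 1654 against 772.3 and 821.8) and lower in Tet3-/- (3551 and 3893 against 5282 and 5763).

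Ccnd1 was 3631 and 3595 with the empty vector and 6194 and 5643 with Dnmt1 in Tet3+/+ cells, 772.3 and 821.8 against 1654 and 1600 in Tet3m/m, and 5282 and 5763 against 3893 and 3551 in Tet3-/-. In each genotype the vector groups did not overlap, as was the case for 52.7%, 53.5% and 52.0% of genes. With Dnmt1, Ccnd1 rose 1.64-fold in Tet3+/+ (log2 difference, 0.71 ± 0.063 SE, limma adjusted p = 1.39e-06) and 2.04-fold in Tet3m/m (1.03 ± 0.063 SE, adjusted p = 6.49e-10). In Tet3-/- the log2 difference was -0.57 ± 0.063 SE (adjusted p = 4.39e-06), 1.48-fold lower and just under the fold threshold, and it was called without empty vector replicate 1 (-0.63) or Dnmt1 replicate 1 (-0.64). As a test of the difference itself, the Dnmt1 effect in Tet3-/- minus that in Tet3+/+ was -1.28 ± 0.09 SE (adjusted p = 2.9e-08), where 1 of 9 members and 3.99% of genes were called, 1.33% as lower. Minus that in Tet3m/m it was -1.60 ± 0.09 SE (adjusted p = 2.61e-10), where 2 of 9 members and 5.38% of genes were called, 2.5% as lower. The effects in Tet3m/m and Tet3+/+ differed by 0.32 (95% interval, 0.13 to 0.51, adjusted p = 0.098). In Tet3m/m cells, Ccnd1 with Dnmt1 remained below the empty vector level of Tet3+/+ cells in both samples.

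Ccnd2 had the same signs with smaller sizes. Its counts were 6642 and 6444 with the empty vector and 7972 and 7780 with Dnmt1 in Tet3+/+, 4621 and 4225 against 5752 and 5786 in Tet3m/m, and 7114 and 6995 against 6062 and 5454 in Tet3-/-. The vector groups did not overlap in any genotype. The log2 differences were 0.27 in Tet3+/+ (limma, adjusted p = 0.00467), 0.38 in Tet3m/m (adjusted p = 4.8e-05) and -0.30 in Tet3-/- (adjusted p = 0.000786), all within 1.5-fold. The effects in Tet3-/- and Tet3m/m differed by -0.68 ± 0.076 SE (adjusted p = 2.42e-06) and were called, and between Tet3-/- and Tet3+/+ by -0.56 ± 0.076 SE (adjusted p = 5.74e-05), which was called without Dnmt1 Tet3-/- replicate 1 (-0.64). Ccnd3 passed the adjusted p in Tet3m/m, at 0.18 (adjusted p = 0.012), while in Tet3+/+ it was 0.11 (adjusted p = 0.16), and these effects differed by 0.07 (adjusted p = 0.77). Against Tet3m/m the effect in Tet3-/- differed by -0.20 (adjusted p = 0.034). In the Tet3-/- samples the pluripotency sum also moved, from 2948 and 3095 to 4759 and 4605 with Dnmt1, with 4 of 5 markers called higher, while it went from 17433 and 17499 to 18863 and 18969 in Tet3+/+ and from 49377 and 50428 to 54286 and 56113 in Tet3m/m, with none called. Its part in the changes of the cyclins was not tested.

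Of the inhibitors, Cdkn2b responded in Tet3m/m cells, with 130.7 and 135.4 under the empty vector and 202.9 and 201.8 under Dnmt1. In Tet3+/+ cells it stayed at 745.8 and 637.8 against 675.0 and 641.6, which overlapped, and in Tet3-/- it was 2394 and 2365 against 2546 and 3251. The change in Tet3m/m was 1.52-fold (log2 difference, 0.60 ± 0.11 SE, limma adjusted p = 0.000807), or 0.58 and under the fold threshold without empty vector replicate 1. The effect in Tet3m/m minus that in Tet3+/+ was 0.67 ± 0.15 SE (adjusted p = 0.027), where 1 of 9 members and 0.604% of genes were called, 0.521% as higher. EdgeR gave an adjusted p of 0.057, and limma without the trend 0.267. Leaving out 1 library ended that call for 9 of the 12 libraries (all 4 of Tet3m/m, both of Tet3+/+ with Dnmt1, Tet3+/+ empty vector replicate A and both of Tet3-/- with the empty vector), with adjusted p from 0.051 to 0.18. In the same Tet3m/m samples the fibroblast sum was 2900 and 3145 with the empty vector and 4614 and 4704 with Dnmt1, and 5 of the 8 markers were called higher. Their part in the change of Cdkn2b was not tested.

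Cdkn2a passed the adjusted p in Tet3m/m (415.8 and 419.4 against 567.6 and 499.0; log2 difference 0.35, adjusted p = 0.00611) and in Tet3-/- (3066 and 2916 against 3309 and 3855; 0.26, adjusted p = 0.036). Cdkn1a passed it in Tet3-/- (10862 and 10644 against 12478 and 14850; 0.34, limma adjusted p = 0.000844). Both were higher with Dnmt1, by less than 1.5-fold. Cdkn1b was lower with Dnmt1 in Tet3m/m by -0.19 (adjusted p = 0.03) and in Tet3-/- by -0.22 (adjusted p = 0.00948). Cdkn2c and Cdkn2d did not pass in any genotype, with intervals from -0.58 to 0.49 and from -0.39 to 0.23 on the log2 scale.

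In the Tet3-CD experiment each genotype and vector has 1 sample, so a single genotype has values and ratios with no test. The count of Tet3, which covers the plasmid as well, was 4755 under the empty vector against 5441 under Tet3-CD in Tet3+/+, 1850 and 5232 in Tet3m/m, and 2070 and 2759 in Tet3-/-. Over the 3 genotypes, an additive model of genotype and vector with 2 residual degrees of freedom was fitted by limma, in which differences between genotypes in the vector effect count as error. For the vector it called 0 of 9 members and 0.0% of the 17481 genes tested, with 0 members and 1007 genes (5.76%) at an unadjusted p under 0.05, and edgeR and DESeq2 called 0 members as well. Intervals stayed wide: the log2 difference of Cdkn2b was 0.48 (95% interval, -0.05 to 1.01) and that of Ccnd1 -0.14 (-0.32 to 0.04).

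**Figure D5:**
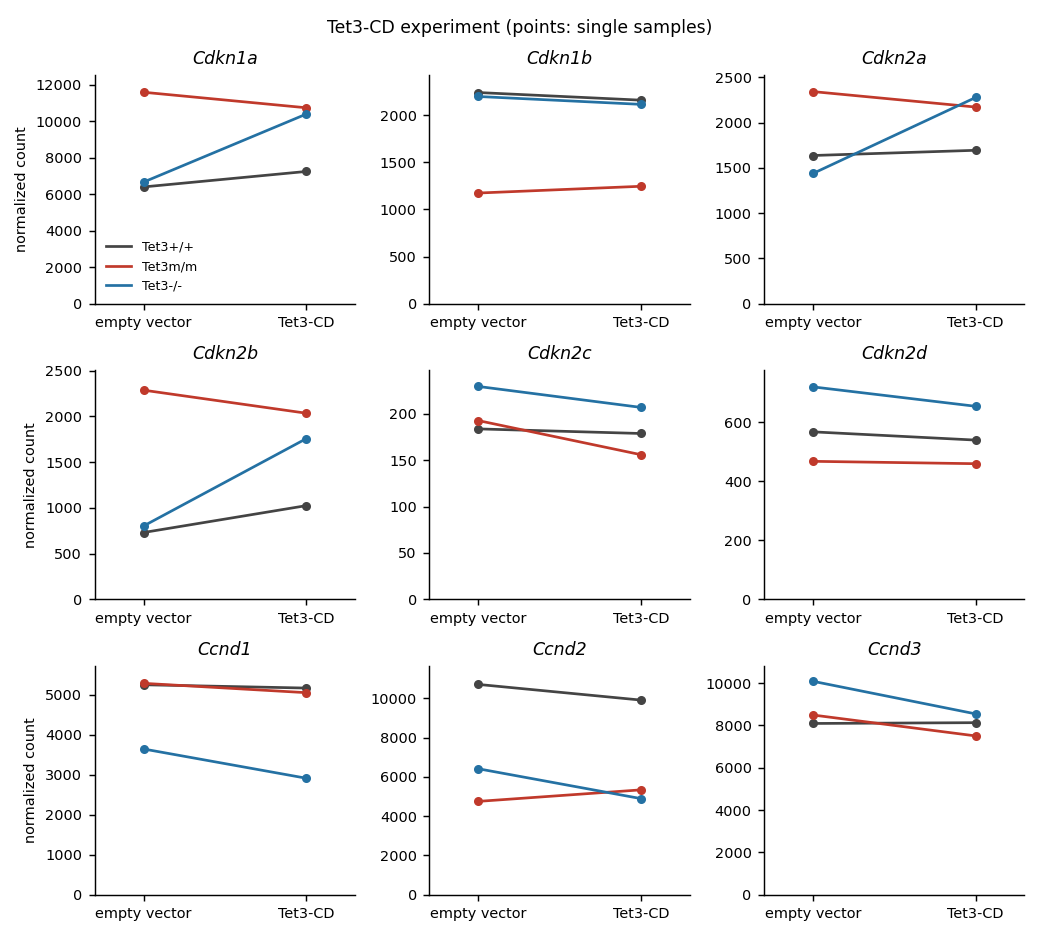
Normalized counts of the 9 genes in the 6 samples of the Tet3-CD experiment, 1 sample per genotype and vector. Points are single samples, and lines join the samples of 1 genotype. Cdkn2b in Tet3-/- goes from 800.9 with the empty vector to 1756 with Tet3-CD, while in Tet3m/m it is 2287 and 2035.

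Sample by sample, Cdkn1a, Cdkn2a and Cdkn2b went past 1.5-fold in Tet3-/- cells. Cdkn2b was 729.6 under the empty vector against 1023 under Tet3-CD in Tet3+/+, 2287 and 2035 in Tet3m/m, and 800.9 and 1756 in Tet3-/-. The log2 ratio of Tet3-CD to empty vector was 0.49 in Tet3+/+ (95% exact binomial counting interval, 0.35 to 0.63), -0.17 in Tet3m/m (-0.25 to -0.08) and 1.13 in Tet3-/- (1.01 to 1.25). These intervals cover counting error only. Cdkn2a was 1438 and 2277 in Tet3-/- (log2 ratio, 0.66; 0.57 to 0.76), against ratios of 0.05 in Tet3+/+ and -0.11 in Tet3m/m. Cdkn1a was 6657 and 10379 in Tet3-/- (0.64; 0.60 to 0.68), against 0.18 and -0.11. These 3 members went past 1.5-fold in Tet3-/-, as did 21.5% of genes, and none did in Tet3+/+ (13.4% of genes) or Tet3m/m (10.1%). The cyclins had small negative ratios in Tet3-/-, of -0.32 for Ccnd1 (3641 to 2911), -0.39 for Ccnd2 (6417 to 4898) and -0.24 for Ccnd3 (10086 to 8547). In those Tet3-/- samples the fibroblast sum was 22287 under the empty vector against 28746 under Tet3-CD, with 1 of 8 markers at 0 in the latter. The neuroectoderm sum went from 9794 to 15597. Nes alone went from 5042 to 12359, a larger rise than that of the sum, so the other markers of that list fell when added up. The pluripotency sum went from 7192 to 4521, the endoderm sum from 15130 to 9911 and the mesoderm sum from 2070 to 1244. The part of these cell types was not tested.

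Between genotypes over both vectors, 4 of 9 members were called in Tet3m/m against Tet3+/+, where 21.7% of genes were. The samples of a genotype differ here in vector, so p-values of these genotype comparisons measure the scatter of the vector effect. They do not measure the spread between clones or cultures of a genotype. Cdkn2b rose 2.49-fold (log2 difference, 1.32 ± 0.27 SE, limma adjusted p = 0.013) and Cdkn1a 1.64-fold (0.71 ± 0.16 SE, adjusted p = 0.018). Ccnd2 fell by a factor of 2.04 (-1.03 ± 0.13 SE, adjusted p = 0.00217), from 10712 and 9915 in Tet3+/+ to 4756 and 5342 in Tet3m/m. Cdkn1b fell by a factor of 1.82 (-0.86 ± 0.085 SE, adjusted p = 0.00107), from 2240 and 2159 to 1174 and 1246. Ccnd1, at 5245 and 5163 in Tet3+/+ and 5282 and 5048 in Tet3m/m, differed by -0.01 (95% interval, -0.23 to 0.21). This contrasts with its 2.66-fold and 4.53-fold lower levels in Tet3m/m in the other experiments, whose sampling time may differ. The difference between experiments was not tested.

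In Tet3-/- against Tet3+/+, 2 of 9 members were called, both lower (10.9% of genes were called and 3.79% as lower). Cdkn1a, Cdkn2a and Cdkn2b, which were higher in the Tet3-/- samples of the other experiments, were not called here. Their log2 differences were 0.29, 0.12 and 0.46 over both vectors. With the empty vector alone, at 1 sample per genotype, their log2 ratios were 0.06, -0.19 and 0.13. Ccnd2, at 6417 and 4898 in Tet3-/-, fell by a factor of 1.84 (adjusted p = 0.00644) and Ccnd1, at 3641 and 2911, by a factor of 1.60 (limma, adjusted p = 0.00518). Between Tet3-/- and Tet3m/m, Cdkn1b was higher and Ccnd1 lower in Tet3-/- (2 of 9 members and 13.9% of genes), by 0.83 and -0.67 on the log2 scale. With a limma prior that ignores the trend of the spread with the level, 2, 0 and 1 members were called in these 3 comparisons instead of 4, 2 and 2. Endoderm markers differed in the same samples: the sum of 6 genes (Gata4, Gata6, Sox7, Sox17, Foxa2 and Dab2) was 53127 and 46715 in Tet3+/+, 13140 and 12555 in Tet3m/m and 15130 and 9911 in Tet3-/-, and all 6 were called lower in both mutants. The fibroblast sum was 30382 and 33553 in Tet3+/+ and 26890 and 25004 in Tet3m/m, so here the higher Cdkn2b of Tet3m/m went with a lower sum. Its markers were not alike. Col3a1 was lower in Tet3m/m (6954 and 6398 against 11938 and 13397), while Col1a1 overlapped between the genotypes (16541 and 15234 against 15500 and 17209). The part of either cell type was not tested.

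Across the experiments, Ccnd2 was lower in Tet3m/m than in Tet3+/+ each time (log2 differences, -1.10, -0.57 and -1.03), whereas Cdkn2b differed by 0.04, -2.37 and 1.32. Against Tet3+/+, Cdkn2b in Tet3-/- differed by 1.02, 1.78 and 0.46 and was called only in the Dnmt1 experiment. Differences between the experiments were not tested, and their sampling times may differ. Other genes of the pathway were followed as lists. Of 7 kinases and cyclins of G1 and S phase, none was called on day 3 in any comparison by limma, and under the empty vector of the Dnmt1 experiment Cdk6 (-0.68) and Cdk4 (-0.62), the partners of D cyclins, fell in Tet3m/m (2 of 7, where 10.9% of genes were called lower). In Tet3-/- of that experiment Cdk6 rose (0.82) and Ccna1 fell (-2.11). With Tet3-CD and its empty vector, Cdk6 rose in Tet3m/m (1.10) and Cdk2, the partner of cyclins E and A, fell (-0.73). Of 13 pocket proteins and E2F-DP factors, 2 fell in Tet3m/m on day 3, the pocket protein gene Rbl2 (-0.90) and the E2F partner Tfdp1 (-0.77), where 5.19% of genes were called lower, and none was called in Tet3-/- against Tet3+/+. Under the empty vector of the Dnmt1 experiment, E2f2 rose (0.75) and Tfdp1 (-0.96) and E2f4 (-0.59) fell in Tet3m/m. In the Tet3-CD experiment Rb1, the retinoblastoma gene, rose in Tet3m/m and in Tet3-/- (0.67 each), Tfdp2 fell in Tet3m/m (-0.59), and E2f8 rose in Tet3-/- (0.65).

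The 20 replication genes that E2F switches on were all lower in Tet3-/- than in Tet3+/+ on day 3, with a median log2 difference of -0.39 against -0.01 over all genes, but none was called by limma. In Tet3m/m 2 of 20 fell, Tk1 (-0.73) and Rrm2 (-0.63), with a median of -0.19, where 10.2% of all genes were called and 5.19% as lower. When Dnmt1 was added, 12 of 20 passed the adjusted p as lower and none as higher in Tet3-/- (median, -0.18), where 13.4% of genes passed it. In Tet3m/m 9 passed as higher and none as lower (median, 0.16), where 10.2% of genes passed. None was called in either. These signs were those of Ccnd1 and Ccnd2 in the same genotypes. The replication genes are not described here for Tet3+/+ cells, where both cyclins were also higher with Dnmt1. The part of the cyclins in these changes was not tested. The difference of the effects between Tet3-/- and Tet3m/m passed the adjusted p for 17 of 20, all lower, and for 14.2% of genes. Of 12 genes of G2 and M phase, 9 passed as lower in Tet3-/- under the empty vector of the Dnmt1 experiment (median, -0.37), where 53.2% of genes passed, and 1, Ccnb2 (-0.63), was called.

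Among 15 regulators of the members, Ezh2, the methyltransferase of Polycomb complexes that silence Cdkn2a and Cdkn2b, fell in Tet3m/m in all 3 experiments. Its log2 differences were -1.10 on day 3, -0.91 under the empty vector (Dnmt1 experiment) and -1.25 over both vectors (Tet3-CD experiment). In the same order, Cdkn2a differed by -0.28, -1.81 and 0.44 and Cdkn2b by 0.04, -2.37 and 1.32. The other Polycomb genes of the list (Suz12, Eed, Bmi1 and Cbx7) are not described here. Mycn, a Myc family factor of neural progenitors, fell on day 3 in Tet3m/m (-1.05, limma adjusted p = 0.00241) and in Tet3-/- (-1.01, adjusted p = 0.0489). Myc, which opposes Cdkn1a and Cdkn2b, fell by 1.18 in Tet3m/m and rose by 0.75 in Tet3-/- under the empty vector of the Dnmt1 experiment, and rose by 0.86 with Dnmt1 in Tet3m/m. In the Tet3-CD experiment it rose by 0.82 in Tet3m/m, as did Trp53, the gene of p53, by 0.60. Mdm2, a p53 target like Cdkn1a, rose in Tet3-/- under the empty vector of the Dnmt1 experiment (0.68) and in Tet3m/m of the Tet3-CD experiment (1.11). Cdkn1c (p57), the CIP/KIP gene outside the 9, fell in Tet3m/m in all 3 experiments (-0.92, -1.56 and -0.97), and in Tet3-/- of the Tet3-CD experiment it rose (1.04). Of all genes, 10.2%, 21.2% and 21.7% were called in Tet3m/m against Tet3+/+ in these experiments, in the same order. For Tet3-/- against Tet3+/+ the shares were 0.642%, 24.9% and 10.9%, and for Dnmt1 in Tet3m/m 2.46%. The part of the 15 regulators in the differences of the members was not tested.

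Ccnd2 (chr6:127125162-127152193, minus strand) and Cdkn1b (chr6:134920401-134925513, plus strand; both GENCODE M21 on GRCm38) lie on chromosome 6, whose 848 genes tested had a median log2 difference of -0.23 between Tet3m/m and Tet3+/+ on day 3. In the other experiments the chromosome's median was -0.25 under the empty vector of the Dnmt1 experiment and -0.25 with Tet3-CD and its empty vector. On day 3 the 40 genes nearest to Ccnd2 had a median of -0.01 and those nearest to Cdkn1b also -0.01. These medians were 0.04 and 0.22 in the Dnmt1 experiment, then -0.05 and 0.20 with Tet3-CD. The part of the chromosome in these differences was not tested.

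Profiles over the 20 samples of the day 3 and Dnmt1 experiments were compared among 17235 genes, after subtraction of each experiment's mean, as a description in which samples of 1 group share their genotype and vector. Cdkn2a and Cdkn2b were alike (Pearson's r = 0.986, Spearman's rho = 0.952), and Cdkn1a was like Cdkn2b (r = 0.960, rho = 0.932). Ccnd1 and Ccnd2 had r = 0.794 (rho = 0.740), with 0.947 on day 3 alone and 0.916 in the Dnmt1 experiment alone. Cdkn1b ran opposite to Cdkn2b (r = -0.811, rho = -0.878). The genes most like Cdkn1a were Perp (r = 0.995), Plk2 (0.992) and Pea15a (0.992), those most like Cdkn2a were Smad3 (0.994), Ddr1 (0.993) and Atxn7l3b (0.991), and those most like Cdkn2b were Csf1 (0.991), Hspb8 (0.990) and Cd248 (0.989). For Ccnd1 they were Ptn (0.980), Hmga2 (0.970) and Vash2 (0.970), and for Ccnd2 Slc1a2 (0.965), Brsk2 (0.947) and Zfp521 (0.941). Cdkn1b was closest to Sdhd (0.942) and Ccnd3 to Srm (0.924). For Cdkn2d they were Cox6b2 (0.894, and 0.273 in the Dnmt1 experiment alone), Tysnd1 (0.875 and 0.386) and 2810410L24Rik (0.862 and 0.548). For Cdkn2c they were Trp53rka (0.797, and 0.0948 in the Dnmt1 experiment alone), Mrpl38 (0.797 and 0.605) and Fbxl6 (0.773 and 0.510).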

How the data were processed

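RNA-seq of 26 of the 35 samples was used, namely 8 day 3 samples, 12 with Dnmt1 or its empty vector, and 6 with Tet3-CD or its empty vector. The 9 samples of other assays were not analysed here. The authors trimmed reads (Trim Galore 0.6.7), aligned them (STAR 2.7.9a, mm39 by the methods, while the processing notes also name mm10), counted them per gene (featureCounts) and deposited signal values, which are counts divided by the DESeq2 size factor of each sample. All deposited values were within 0.01 of whole multiples of 1 read (100% per sample), so reads were recovered for edgeR and DESeq2. These sets held 36594650 to 47710548, 31155842 to 50845950 and 33475041 to 37707719 reads per sample, which limits the precision of low genes such as Cdkn2c more than that of the others.

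Genes with a mean of at least 10 were tested (17915, 18055 and 17481) with limma 3.58.1 in R 4.3.3 (empirical Bayes with trend, log2 of value + 1, all groups of an experiment in 1 fit) and adjusted by the Benjamini-Hochberg method over all genes tested. The pseudocount makes fold changes of low genes smaller. Alternatives were edgeR 4.0.16 and DESeq2 1.42.0 on recovered reads, TMM scaling, a pseudocount of 0.1 or 5, a minimum mean of 50 or no minimum, no trend, only the groups compared, no fold threshold, a replicate block and each replicate left out. Replicate numbers were not taken as pairs, since no source ties them to a shared litter, batch or day. Count ratios of single samples have exact (Clopper-Pearson) 95% intervals.

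All 9 members were tested in every comparison, and a member that the text does not name in a comparison was not called in it. From each list of other genes up to 3 called genes per direction are named. The members and lists were chosen with earlier results of these data known. The methods were tested on simulated data. Positions and exon lengths come from GENCODE M21, matched by symbol for 96.9% to 97.0% of genes, and promoters from RefSeq. Tables and figures were made in Python 3.11.15 (pandas 2.3.3, matplotlib 3.10.9, scipy 1.17.1, numpy 2.4.6).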

Additional observations from a re-analysis of the deposited data

Results flagged for a closer look

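The effect of Dnmt1 against the empty vector differed between genotypes for 4 members by the interaction term of limma, each at an adjusted p under 0.05 without the fold threshold. For Tet3-/- minus Tet3m/m, 14.2% of all genes passed that adjusted p. With the fold threshold, 5.38% of genes were called there, 3.99% for Tet3-/- minus Tet3+/+ and 0.604% for Tet3m/m minus Tet3+/+. For Ccnd1, the effect in Tet3-/- minus that in Tet3+/+ was -1.28 and minus that in Tet3m/m -1.60 on the log2 scale, with a rise in both samples of Tet3+/+ and Tet3m/m and a decrease in both samples of Tet3-/-. For Ccnd2 the same differences were -0.56, within 1.5-fold, and -0.68. For Ccnd3 the effect in Tet3-/- minus that in Tet3m/m was -0.20, also within 1.5-fold. For Cdkn2b the effect in Tet3m/m minus that in Tet3+/+ was 0.67. Neither edgeR (adjusted p = 0.0568) nor limma without the trend (adjusted p = 0.267) placed that value past the threshold. Leaving out single libraries ended this call for most of them.

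The difference between Tet3m/m and Tet3+/+ cells with the empty vector went past 1.5-fold in opposite directions in the transfection experiments for Cdkn1a and Cdkn2b. For Cdkn1a it was -0.71 in the experiment with Dnmt1 and 0.86 in that with Tet3-CD, and for Cdkn2b it was -2.37 and 1.65. The signs also differed, with at least 1 value within 1.5-fold, for Cdkn2a (-1.81 and 0.52), Cdkn1b (0.33 and -0.93), Cdkn2d (0.08 and -0.28), Ccnd3 (-0.16 and 0.07) and Ccnd1 (-2.18 and 0.01). The difference between the experiments was not tested, and the Tet3-CD experiment has 1 sample per group and an uncertain sampling time.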

How the results depend on the processing

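Of the counts of members called in 16 comparisons, 270 recomputed values stayed within 1.5 times the count reported and 29 did not, and of recomputed member differences 1372 kept direction and side of the threshold, 35 came to pass it, 23 no longer passed it and 12 changed sign. All 162 recomputed ratios of the Tet3-CD experiment kept their value within the counting interval. Without the fold threshold, the members passing were 5 in place of 0 for Dnmt1 in Tet3-/-, 6 in place of 2 in Tet3m/m, 2 in place of 1 in Tet3+/+, 2 in place of 1 for the effect in Tet3-/- minus that in Tet3+/+, and 7 in place of 4 for Tet3m/m against Tet3+/+ with the empty vector. Of all genes, 13.4% passed for Dnmt1 in Tet3-/- and 10.2% in Tet3m/m. With the empty vector, 53.2% passed for Tet3-/- against Tet3+/+. The share for Tet3m/m against Tet3+/+ is not given here, so its count of 7 is not read as a result about the members. DESeq2 called 1 member and a fit of only the groups compared called 1, Cdkn1a in both, for Tet3-/- against Tet3+/+ on day 3 (0 reported). Limma without the trend called 2 of the 4 members between Tet3-/- and Tet3m/m on day 3, and 2, 0 and 1 in the Tet3-CD experiment for Tet3m/m against Tet3+/+, Tet3-/- against Tet3+/+ and Tet3-/- against Tet3m/m (4, 2 and 2 reported). For the effect of Dnmt1 in Tet3m/m minus that in Tet3+/+, edgeR and limma without the trend called 0 (1 reported). The cause of these shifts was not tested, except that dropping a threshold can only add calls.

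Leaving out 1 replicate gave 2 to 6 members for Tet3-/- against Tet3m/m on day 3, 0 to 1 for Tet3-/- against Tet3+/+, 0 to 1 for Dnmt1 in Tet3-/-, 1 to 2 for Dnmt1 in Tet3m/m, and 1 to 2 and 0 to 1 for the effects in Tet3-/- and in Tet3m/m minus that in Tet3+/+. Signs that changed belong to differences within their intervals of 0: on day 3 between Tet3m/m and Tet3+/+, Cdkn1a ranged from -0.41 to 0.0011, Cdkn2b from -0.24 to 0.41 and Cdkn2c from -0.15 to 0.18 (0.00289 by edgeR and 0.000779 by DESeq2), between Tet3-/- and Tet3+/+, Cdkn2d ranged from -0.50 to 0.012 and Ccnd3 from -0.21 to 0.11, and between Tet3-/- and Tet3m/m Cdkn1b ranged from -0.18 to 0.052 (0.014 with the replicate block).

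With the replicate block, 4, 0 and 3 members were called on day 3 for Tet3-/- against Tet3m/m, Tet3-/- against Tet3+/+ and Tet3m/m against Tet3+/+ (4, 0 and 2 without it, the added one being Cdkn2d at an adjusted p of 0.04997 by limma), and 0 and 2 for Dnmt1 in Tet3-/- and Tet3m/m, as without it. The deviations of samples with the same number correlated at no more than 0.0820 on day 3. A fit of only the samples with numbered columns, chosen after seeing the data, gave the same counts as with all samples. No paired analysis was possible because of unnumbered columns for comparisons that use Tet3+/+ cells with the empty vector, and none with 1 sample per group in the Tet3-CD experiment.

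Groups of 2 or 3 samples limit the day 3 results more than depth does, and Tet3-/- rests on 2 clones.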
